A study of Mus musculus with 10 samples.

Results

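The genes described here encode the MLL histone methyltransferase complex and the elongation machinery it is joined to in leukaemia. They are 10 genes of the 18193 with a symbol of their own on the array: Kmt2a (older name Mll1), Men1, Wdr5, Ash2l, Dot1l, Mllt10, Mllt1, Mllt3, Aff1 and Aff4. Members were chosen by gene symbol in the platform annotation, in a list drawn up with earlier results of these data known. They are read by 26 probe sets of 45037, each given on its own. A probe set was tested if its signal passed 369 (the 40th percentile of all values, here the detection level) in at least 3 of the 10 arrays. That left 25, because Mllt10 probe set 1442070_at stayed between 23.9 and 281 in all cultures. RNA came from mouse marrow progenitors of the myeloid lineage made to grow without limit by a transferred oncogene. They had been derived with stem cell factor and without GM-CSF. HoxA9 alone, HoxA9 together with Meis1 (HoxA9+Meis1) and the fusion NUP98-NSD1 had 3 clones each, and the fusion MLL-ENL had 1 array. The labels give no mouse strain, no age and no promoter for the transferred genes. They do not say whether clones came from separate animals either, so p-values measure the spread between these cultures, which may be technical.

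MLL, the product of Kmt2a, places methyl groups on lysine 4 of histone H3 at active genes, the Hox-A cluster among them. It binds chromatin through menin (Men1) and works with the core subunits Wdr5 and Ash2l. In leukaemia the front of MLL is joined to proteins of the elongation machinery, such as ENL (Mllt1), AF9 (Mllt3), AF10 (Mllt10), AF4 (Aff1) and AF5q31 (Aff4). ENL and AF9 bind both the AF4 family scaffolds, which bring in the kinase P-TEFb, and Dot1l, the enzyme for lysine 79 of histone H3.

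Kmt2a and Men1 were among the members higher in NUP98-NSD1, and Mllt3 was the member lower there and in MLL-ENL than in HoxA9, so the promoter stretch of each is shown as an example, as the reference has it. Each run is the 250 bases before the outermost start of the gene, 5′ to 3′ on the gene's strand, from RefSeq on GRCm38.p6. Capitals mark the 6-letter GC box GGGCGG, the 5-letter CCAAT box, or TGACAG, a motif of the Meis family, on either strand. Overlapping matches were counted separately.
Kmt2a, chr9:44881290-44881539, minus strand: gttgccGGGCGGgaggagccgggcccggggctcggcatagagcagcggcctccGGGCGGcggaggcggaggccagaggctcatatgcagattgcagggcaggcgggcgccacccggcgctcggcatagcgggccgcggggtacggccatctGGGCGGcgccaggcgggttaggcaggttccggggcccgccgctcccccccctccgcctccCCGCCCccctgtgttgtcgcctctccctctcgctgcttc
Men1, chr19:6334729-6334978, plus strand: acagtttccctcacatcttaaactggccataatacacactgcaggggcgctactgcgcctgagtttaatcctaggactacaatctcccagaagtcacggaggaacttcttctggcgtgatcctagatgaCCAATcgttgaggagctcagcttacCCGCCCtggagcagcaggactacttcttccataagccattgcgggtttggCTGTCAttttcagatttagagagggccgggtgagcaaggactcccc
Mllt3, chr4:88033408-88033657, minus strand: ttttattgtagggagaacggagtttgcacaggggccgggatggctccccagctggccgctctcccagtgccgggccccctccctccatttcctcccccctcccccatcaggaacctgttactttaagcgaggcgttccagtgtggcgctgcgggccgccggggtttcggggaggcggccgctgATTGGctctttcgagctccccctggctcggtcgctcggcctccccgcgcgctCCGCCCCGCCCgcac
The Kmt2a stretch is 76.8% G and C and holds 4 GC boxes and no CCAAT box. That of Men1 is 52% G and C, with 1 GC box, 1 CCAAT box and 1 TGACAG. The Mllt3 stretch is 69.2% G and C, with 2 GC boxes that overlap and 1 CCAAT box. The table has 15 such windows for 9 of the 10 genes. GGGCGG was in 11 of the 15 windows, against 32.7% of all 32851 windows of the same length in the table. CCAAT was in 7 against 33.8%, and TGACAG in 5, of 3 genes, against 15.9%. The Ets motif CCGGAAGT was in 1 window, that of Mllt1, against 2.88%, and the E-box CACGTG in 1, that of Aff4, against 6.02%. TGATTNAT, a motif of Hox and Pbx pairs, was in 0 against 2.82%. Several windows belong to one gene, and those of Men1 overlap, so windows do not count as separate observations. A match of letters is not a measured binding site.

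The arrays fell into 2 sets by the 18 probe sets for transcripts added at hybridization. Their mean log2 signal lay between 13.18 and 13.42 for the Hox groups and between 14.01 and 14.13 for the fusions. A comparison of either fusion with either Hox group therefore crosses the sets, and there oncogene and array set cannot be told apart. The 3′ to 5′ signal ratio of Actb also differed, at 1.18 to 1.43 in the fusion arrays and 1.09 to 1.17 in the others. Of 9 myeloid progenitor markers, 8 (Mpo and Elane among them) were above the detection level on all arrays, and Cd34 was above it on 8 arrays. Neutrophil markers (6 genes) summed to 428107 to 915411 in the NUP98-NSD1 clones, 14149 to 63584 in the HoxA9 clones, 9336 to 93491 in the HoxA9+Meis1 clones and 17895 in MLL-ENL. Mast cell and basophil markers (6 genes) summed to 59867 to 231939 in the NUP98-NSD1 clones, 6854 to 11243 in the HoxA9 clones, 15729 to 25889.8 in the HoxA9+Meis1 clones and 3755 in MLL-ENL. Monocyte and macrophage markers (6 genes) summed to 66005 to 82069 in the HoxA9 clones, 95932 to 153471 in the HoxA9+Meis1 clones, 91043 to 104300 in the NUP98-NSD1 clones and 172828 in MLL-ENL. Elane, the elastase of neutrophil precursors, read 106958 to 116367 in the HoxA9 clones, 13902 to 25137 in the HoxA9+Meis1 clones, 147012 to 199729 in the NUP98-NSD1 clones and 198245 in MLL-ENL. Every difference below between groups moved with some of these markers, whose part in it was not tested. Of 5 T cell markers, Cd3g and Cd4 were above the detection level on no array, Cd3e on 2, Cd5 on 9 and Cd8a on all 10, and their sum lay between 1771 and 3676. In bulk RNA, fewer cells that use a gene and less RNA per cell cannot be told apart.

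NUP98-NSD1 clones differed from the HoxA9 clones in Kmt2a, Men1, Mllt10 and Dot1l, which were higher, and in Mllt3, which was lower. Of the 25 probe sets 8 passed the test (adjusted p under 0.05 with limma), 6 higher and 2 lower. That is 32%, against 29.0% of all probe sets tested (12.3% higher and 16.7% lower), so the share was near the background. Against HoxA9+Meis1, 5 probe sets passed and all 5 were higher, in Kmt2a, Men1, Mllt10 and Aff1. That is 20%, against 30.9% of all probe sets (13.8% higher and 17.2% lower). The median log2 difference of the 25 was -0.08 against HoxA9 and 0.27 against HoxA9+Meis1, where the median of all probe sets was -0.14 and -0.13. The HoxA9+Meis1 and HoxA9 clones differed in 1 probe set, of Aff1, which was lower (4%, against 6.89% of all, 3.40% higher and 3.49% lower). A further 7 probe sets had an unadjusted p under 0.05 in that comparison without passing the test. The NUP98-NSD1 clones enter both of their comparisons, and the HoxA9+Meis1 clones and the HoxA9 clones likewise enter 2 of these 3, so the comparisons are not independent.

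**Figure D1:**
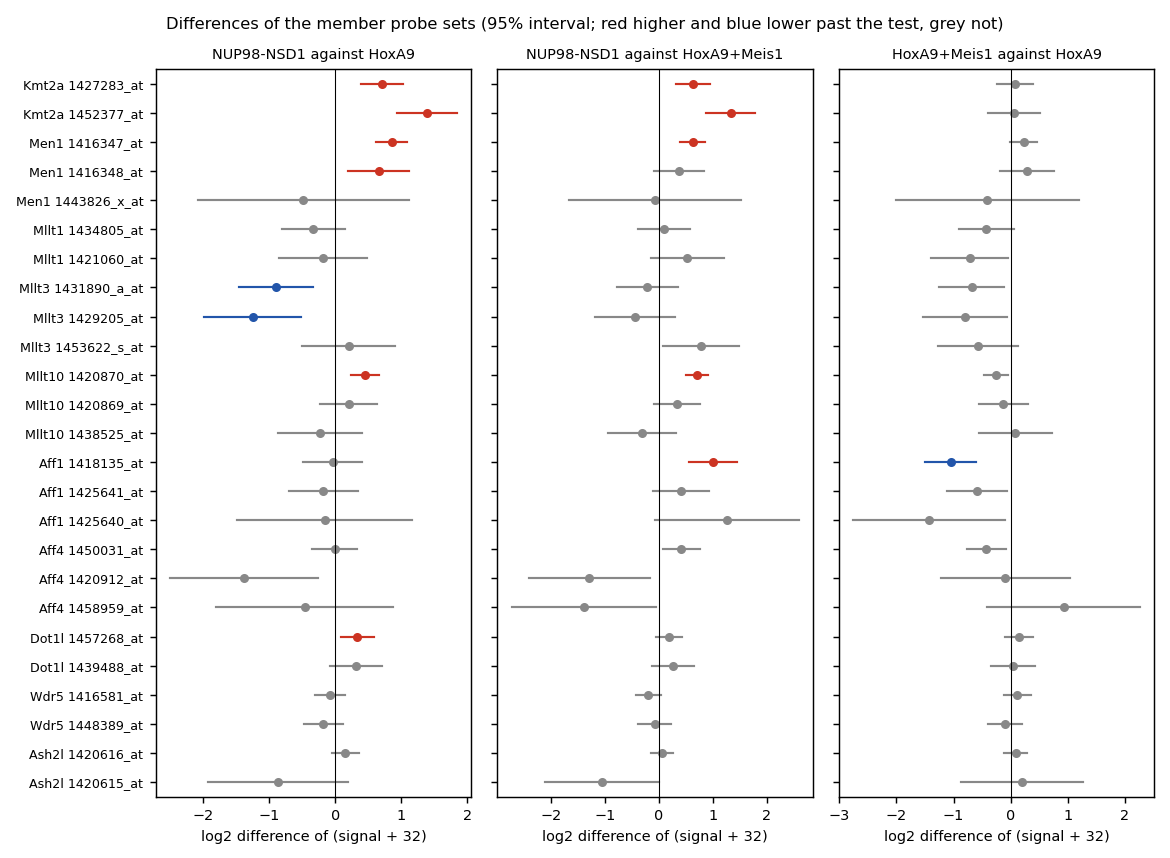
Difference of each tested probe set (x axis, log2 of signal + 32, first group minus second, mean with its unadjusted 95% interval) in the 3 comparisons between groups of 3 clones. Both Kmt2a probe sets and Men1 1416347_at lie to the right of 0 in both NUP98-NSD1 panels, and the 1 probe set past the test between the Hox groups is Aff1 1418135_at, on the left.

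Kmt2a had the largest rise past the test of all members in NUP98-NSD1. Probe set 1427283_at read 3290.0, 3602 and 3295 in the HoxA9 clones, 3303, 3789 and 3624 in the HoxA9+Meis1 clones, 6104, 6253 and 4519.6 in the NUP98-NSD1 clones and 4655 in MLL-ENL. All 3 NUP98-NSD1 clones were above all 6 clones of the Hox groups, clone 3 by the least, and MLL-ENL lay between clone 3 and clone 1. The mean was 5626 ± 961 (SD, n = 3) in NUP98-NSD1 and 3396 ± 179 (SD, n = 3) in HoxA9, a log2 difference of 0.71 (SE 0.14, adjusted p = 0.00478). Against HoxA9+Meis1 the log2 difference was 0.64 (SE 0.14, adjusted p = 0.00736). Fold changes are of signal + 32, and this one came to 1.64-fold over HoxA9.

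The second Kmt2a probe set, 1452377_at, gave the same order of groups with a larger difference. Its signals were 1164, 1432 and 1217 in the HoxA9 clones, 1143, 1348 and 1499.8 in the HoxA9+Meis1 clones, 3578, 4151 and 2582 in the NUP98-NSD1 clones and 1601 in MLL-ENL. Here the NUP98-NSD1 clones did not overlap with any other culture, and MLL-ENL stood just above the Hox groups. The log2 difference was 1.39 (SE 0.21, adjusted p = 0.000941) against HoxA9, or 2.62-fold, and 1.33 (adjusted p = 0.00109) against HoxA9+Meis1. Over the 10 arrays the probe sets of Kmt2a had a Pearson r of 0.955, as a description of cultures that share 4 groups. Between HoxA9+Meis1 and HoxA9 the log2 differences were 0.071 (95% interval -0.24 to 0.39) and 0.061 (95% interval -0.39 to 0.52), so neither passed the test.

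**Figure D2:**
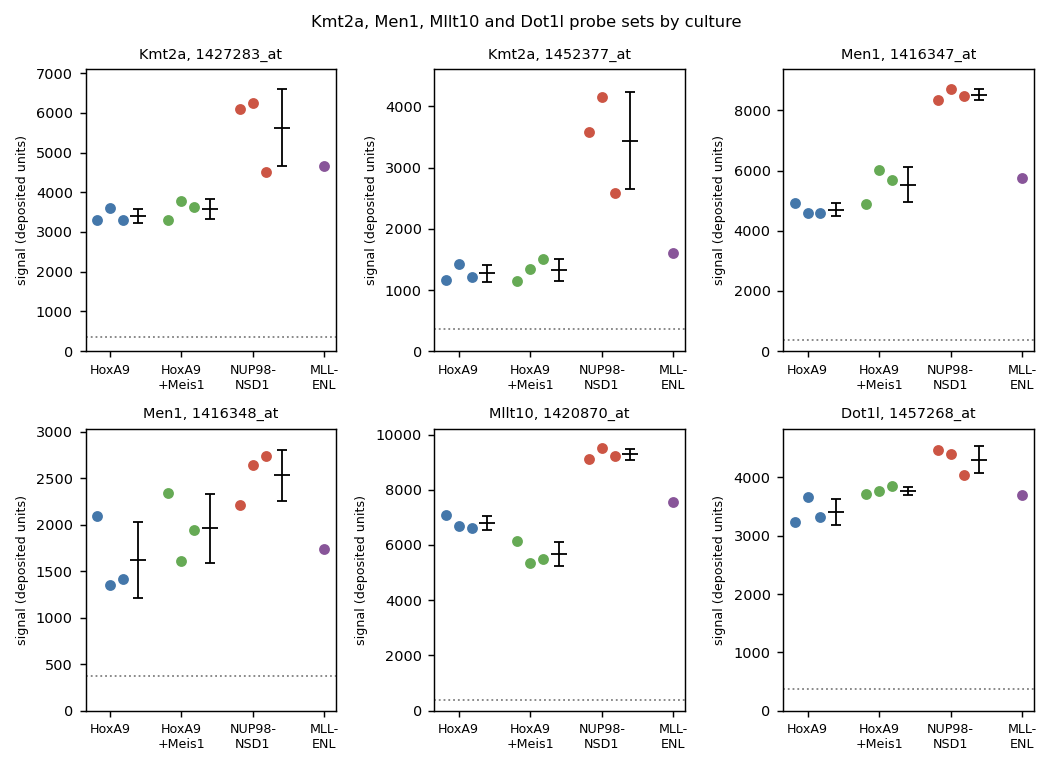
Signal (y axis, deposited units, linear) of Kmt2a, Men1, Mllt10 and Dot1l probe sets in each of the 10 cultures, grouped by oncogene (points), with the mean and SD of 3 clones beside them and the detection level dotted. The NUP98-NSD1 points stand above all Hox group points in both Kmt2a panels and in Men1 1416347_at, where they lie between 8353 and 8705.

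Menin, which tethers MLL to chromatin, rose in NUP98-NSD1 as well. Men1 probe set 1416347_at read 4938, 4594 and 4580.3 in the HoxA9 clones, 4878, 6023 and 5684 in the HoxA9+Meis1 clones, 8353, 8705 and 8482 in the NUP98-NSD1 clones and 5762 in MLL-ENL. The NUP98-NSD1 clones were tightly grouped and above every other culture, and MLL-ENL fell within the HoxA9+Meis1 range. The log2 difference was 0.85 (SE 0.11, adjusted p = 0.000371) against HoxA9, or 1.81-fold. Against HoxA9+Meis1 it was 0.63 (SE 0.11, adjusted p = 0.00185). Adding Meis1 to HoxA9 went with 0.23 (adjusted p = 0.284), which did not pass.

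The other Men1 probe sets gave a less clear picture. For 1416348_at the signals were 2096, 1348 and 1420.3 in the HoxA9 clones, 2344, 1606 and 1942 in the HoxA9+Meis1 clones, 2216, 2641 and 2738 in the NUP98-NSD1 clones and 1741 in MLL-ENL. The NUP98-NSD1 clones were above the HoxA9 clones but overlapped with HoxA9+Meis1. The log2 difference was 0.65 (adjusted p = 0.0403) against HoxA9, and the call was lost in 7 of 18 alternatives, among them the fits without HoxA9 clone 2 (adjusted p = 0.136), HoxA9 clone 3 (0.121), NUP98-NSD1 clone 2 (0.0993) or NUP98-NSD1 clone 3 (0.0862). The third probe set, 1443826_x_at, whose suffix marks probes that can bind other transcripts, ranged from 120.4 to 1248 and was above the detection level on 5 arrays. Its HoxA9 clones alone spanned 482, 1248 and 161, and it passed in no comparison. It had an r of -0.06 with 1416347_at, where 1416348_at had 0.713.

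Wdr5 and Ash2l, the core subunits that MLL shares with the other H3K4 methyltransferases, passed the test in no comparison. Wdr5 probe set 1416581_at was bright throughout, at 12524, 13929 and 12186 in the HoxA9 clones, 13227, 13429 and 15359 in the HoxA9+Meis1 clones, 13186, 12588 and 10924 in the NUP98-NSD1 clones and 11282 in MLL-ENL. The 3 groups of clones overlapped except that the HoxA9+Meis1 clones were all above the NUP98-NSD1 clones, and MLL-ENL lay below all clones of both Hox groups. NUP98-NSD1 minus HoxA9 was -0.076 on the log2 scale, with a 95% interval of -0.31 to 0.15. The second Wdr5 probe set, 1448389_at, ran from 3913 (MLL-ENL) to 6119.8 (HoxA9 clone 2), and the same difference was -0.18 (95% interval -0.48 to 0.12).

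Ash2l probe set 1420616_at read 11618, 12122 and 11430.3 in the HoxA9 clones, 12139.5, 12752 and 12530.5 in the HoxA9+Meis1 clones, 11584, 14099.7 and 13473 in the NUP98-NSD1 clones and 12257 in MLL-ENL. The NUP98-NSD1 clones held both the highest value and the second lowest, and the 95% interval of their difference from HoxA9 was -0.05 to 0.35 around 0.15. The dimmer probe set 1420615_at varied far more within a group, with 1242, 254 and 766 in the NUP98-NSD1 clones. It ran opposite to the brighter one over the 10 arrays (r = -0.685), and its difference of -0.86 from HoxA9 did not pass (adjusted p = 0.200).

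Dot1l, the H3K79 methyltransferase, differed little between the groups. Probe set 1457268_at read 3230.2, 3662 and 3324 in the HoxA9 clones, 3708, 3762 and 3845 in the HoxA9+Meis1 clones, 4471, 4398 and 4037 in the NUP98-NSD1 clones and 3692 in MLL-ENL. The 3 groups of clones did not overlap with each other, with HoxA9 lowest and NUP98-NSD1 highest. NUP98-NSD1 was higher than HoxA9 by 0.34 on the log2 scale (SE 0.11, adjusted p = 0.0444), a 1.26-fold difference. The call was lost in 9 of 18 alternatives, with values of 0.30 to 0.52. Fits without HoxA9 clone 1, 2 or 3 gave adjusted p of 0.122, 0.0637 and 0.114, and fits without NUP98-NSD1 clone 1 or 2 gave 0.0949 and 0.102. The other Dot1l probe set, 1439488_at, differed by 0.31 (adjusted p = 0.210), and its groups overlapped.

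Mllt10 encodes AF10, the partner that Dot1l needs for higher states of H3K79 methylation. Its brightest probe set, 1420870_at, read 7091, 6704 and 6612 in the HoxA9 clones, 6159.5, 5359 and 5507 in the HoxA9+Meis1 clones, 9115, 9509 and 9224 in the NUP98-NSD1 clones and 7547 in MLL-ENL. The order was HoxA9+Meis1, HoxA9, MLL-ENL, NUP98-NSD1, with no overlap between any 2 of them. NUP98-NSD1 was higher by 0.45 than HoxA9 (SE 0.094, adjusted p = 0.00610) and by 0.71 than HoxA9+Meis1 (SE 0.094, adjusted p = 0.000486). The step between the Hox groups, -0.26, did not pass (adjusted p = 0.143). The dimmer Mllt10 probe sets did not pass either, with NUP98-NSD1 minus HoxA9 at 0.21 for 1420869_at and -0.23 for 1438525_at.

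ENL and AF9 are sister proteins with a YEATS domain that reads acylated histones. ENL (Mllt1) passed the test in no comparison. Mllt1 probe set 1434805_at read 2220.0, 3035 and 3864 in the HoxA9 clones, 1934, 2656 and 2058 in the HoxA9+Meis1 clones, 2154, 2754 and 2175 in the NUP98-NSD1 clones and 1804 in MLL-ENL. The HoxA9 clones spread so widely that all 3 groups of clones overlapped. Mllt1 probe set 1421060_at spread widely too, with 754, 1278 and 1327 in the HoxA9 clones and 802, 829.6 and 1295 in the NUP98-NSD1 clones. Its HoxA9+Meis1 clones, at 602, 568 and 801, overlapped with HoxA9 and lay just below NUP98-NSD1. NUP98-NSD1 minus HoxA9+Meis1 was 0.53 (adjusted p = 0.209), and HoxA9+Meis1 minus HoxA9 was -0.71 (adjusted p = 0.227). MLL-ENL gave the lowest Mllt1 value of all 10 arrays on both probe sets.

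AF9 (Mllt3) was highest in the HoxA9 clones on 2 of its 3 probe sets. Probe set 1429205_at read 1322, 1326 and 1679 in the HoxA9 clones, 756, 693 and 1005 in the HoxA9+Meis1 clones, 339, 749.9 and 772 in the NUP98-NSD1 clones and 137 in MLL-ENL. The HoxA9 clones were above every other culture, and NUP98-NSD1 clone 1 and MLL-ENL were under the detection level. NUP98-NSD1 was lower than HoxA9 by a log2 difference of -1.25 (SE 0.33, adjusted p = 0.0182). Without HoxA9 clone 3 the adjusted p was 0.0696, and after a shift of all arrays to a common median 0.0667.

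Mllt3 probe set 1431890_a_at read 1343, 1395 and 1697 in the HoxA9 clones, 1020.2, 764 and 947 in the HoxA9+Meis1 clones, 1074, 593 and 729.9 in the NUP98-NSD1 clones and 1001 in MLL-ENL. Here too the HoxA9 clones were highest and the other cultures overlapped. NUP98-NSD1 minus HoxA9 was -0.90 (SE 0.26, adjusted p = 0.0242). It passed no longer without HoxA9 clone 2 (adjusted p = 0.0603), HoxA9 clone 3 (0.0890) or NUP98-NSD1 clone 2 (0.0731), or at a common median (0.0613). HoxA9+Meis1 minus HoxA9 was -0.68 (adjusted p = 0.160) on this probe set and -0.80 (adjusted p = 0.213) on 1429205_at, neither past the test. The third probe set, 1453622_s_at, did not follow, with 664, 1163 and 740.1 in the HoxA9 clones, 688, 470.5 and 513 in the HoxA9+Meis1 clones and 1236, 1059 and 680.1 in the NUP98-NSD1 clones. Its difference of 0.21 from HoxA9 had the opposite sign and did not pass, and its r with the other Mllt3 probe sets was 0.134 and 0.165.

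**Figure D3:**
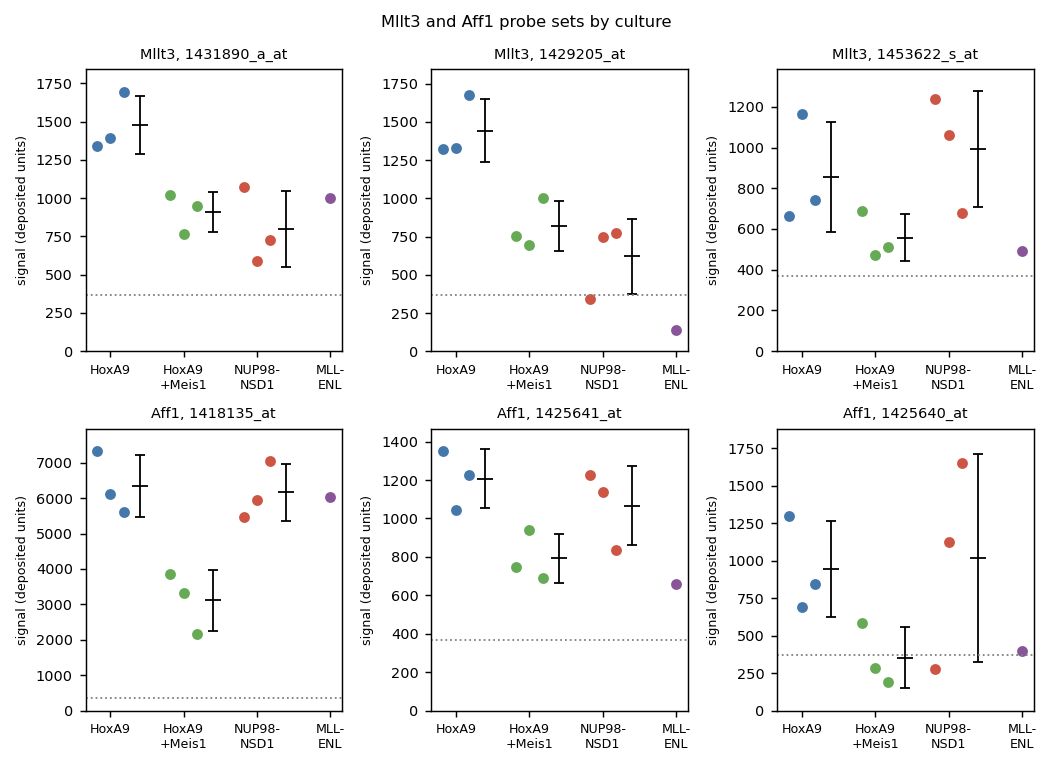
Signal (y axis, deposited units, linear) of the 3 Mllt3 and 3 Aff1 probe sets in each of the 10 cultures, grouped by oncogene (points), with the mean and SD of 3 clones beside them and the detection level dotted. The HoxA9 points are highest in the first 2 Mllt3 panels, and the HoxA9+Meis1 points of Aff1 1418135_at lie between 2176 and 3846, under all other cultures.

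Among the AF4 family scaffolds, Aff1 stood lowest in HoxA9+Meis1 on its brightest probe set. Probe set 1418135_at read 7321, 6107 and 5597 in the HoxA9 clones, 3846, 3313 and 2176 in the HoxA9+Meis1 clones, 5475, 5960.2 and 7044 in the NUP98-NSD1 clones and 6043 in MLL-ENL. All 3 HoxA9+Meis1 clones were below the other 7 cultures, which overlapped. HoxA9+Meis1 was lower than HoxA9 by a log2 difference of -1.05 (SE 0.20, adjusted p = 0.0108), a comparison within 1 array set. The monocyte and mast cell marker sums and Elane, given above, did not overlap between these groups either, and their part was not tested. Single genes of these sums did not all move alike. Ly86 read 36405 to 47073 in the HoxA9+Meis1 clones and 106 to 596 in the HoxA9 clones. Ccr2 went the other way, at 35491 to 37158 and 44210 to 47178, and Csf1r and Ms4a2 overlapped. NUP98-NSD1 was higher than HoxA9+Meis1 by 1.01 (SE 0.20, adjusted p = 0.00413) and differed from HoxA9 by -0.041 (95% interval -0.48 to 0.40). The call against HoxA9 was lost without the intensity trend in the variance (adjusted p = 0.0545).

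The dimmer Aff1 probe sets were also lower in every HoxA9+Meis1 clone than in every HoxA9 clone, without passing the test. Probe set 1425641_at read 1349.8, 1042 and 1229 in the HoxA9 clones and 746, 938 and 692 in the HoxA9+Meis1 clones, a log2 difference of -0.59 (adjusted p = 0.192). Probe set 1425640_at read 1300.4, 689 and 845 and 584, 283 and 193, a difference of -1.42 (adjusted p = 0.224). In the NUP98-NSD1 clones it ran from 276 to 1651, and overlapped with both Hox groups.

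Aff4, the scaffold of the super elongation complex, passed the test in no comparison. Probe set 1450031_at read 7015, 7314 and 6595 in the HoxA9 clones, 4420.3, 4854 and 6460.1 in the HoxA9+Meis1 clones, 8228, 6446 and 6257 in the NUP98-NSD1 clones and 6365 in MLL-ENL. The HoxA9+Meis1 clones were below the HoxA9 clones (log2 difference -0.43, adjusted p = 0.149). Aff4 probe set 1420912_at went another way, lowest in the NUP98-NSD1 clones at 695, 552 and 119 against 1149, 842 and 1067 in the HoxA9 clones, a difference of -1.38 (adjusted p = 0.0640). That value rests on clone spread, since NUP98-NSD1 clone 3, at 119, was far under clones 1 and 2 and under the detection level. Without NUP98-NSD1 clone 1, a fit that keeps clone 3, the difference was -1.81 with an adjusted p of 0.0285. The third, 1458959_at, was above the detection level on 3 arrays.

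The single MLL-ENL culture carries an introduced fusion made from parts of 2 members, MLL and ENL. The sources used here do not say where on the transcripts the Kmt2a and Mllt1 probe sets lie, or of which species the fusion was made, so it is not known whether they read it. For a single array the fit takes the spread of the 3 replicated groups as that of MLL-ENL cultures. Kmt2a 1427283_at, at 4655, was above all Hox group clones, with a log2 difference of 0.45 from HoxA9 (adjusted p = 0.160), and 1452377_at differed by 0.33 (adjusted p = 0.488). Mllt1 1421060_at, at 434, differed by -1.26 (adjusted p = 0.0744), below all HoxA9 clones. None of these passed. Once all arrays were shifted to a common median, which moved the median difference of all probe sets from -0.20 to 0.27, Kmt2a 1427283_at passed at 0.93 (adjusted p = 0.0163) and Men1 1416347_at at 0.77 (adjusted p = 0.0461).

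The difference of MLL-ENL that passed in 2 comparisons was in Mllt3. Probe set 1429205_at, at 137, was under the detection level. Set at that level it was at least 3.65-fold lower than HoxA9 (adjusted p = 0.00280) and at least 2.09-fold lower than HoxA9+Meis1 (adjusted p = 0.00796), a bound that puts the dim array at 369. Its Mllt3 neighbour 1431890_a_at, at 1001, was within the HoxA9+Meis1 and NUP98-NSD1 ranges. MLL-ENL also exceeded HoxA9+Meis1 in Aff1 1418135_at by 0.99 (SE 0.28, adjusted p = 0.0337), a call that was lost without HoxA9+Meis1 clone 2 (adjusted p = 0.0524). The dimmer Aff1 probe sets did not pass. On 1425641_at MLL-ENL, at 661, was below all HoxA9+Meis1 clones (-0.24), and on 1425640_at, at 396, it was within their range (0.28).

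Against HoxA9, 1 of the 25 probe sets passed and was lower (background 14.5%, 5.01% higher and 9.46% lower). Against HoxA9+Meis1 2 passed, 1 in each direction (background 20.0%, 7.66% higher and 12.4% lower). Against NUP98-NSD1, the comparison within 1 array set, 0 passed with limma (background 3.98%, 1.18% higher and 2.80% lower). In the last, 5 had an unadjusted p under 0.05, led by Mllt3 1429205_at at -1.86 (adjusted p = 0.0551), Men1 1416347_at at -0.56 (adjusted p = 0.0685) and Kmt2a 1452377_at at -1.06 (adjusted p = 0.0733). In Men1 1416347_at and Kmt2a 1452377_at the MLL-ENL value was below all 3 NUP98-NSD1 clones. MLL-ENL gave the lowest of 10 values in 5 of the 25 probe sets, or 20%, against 19% of all probe sets tested. It gave the highest in 0, against 9.19% of all.

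**Figure D4:**
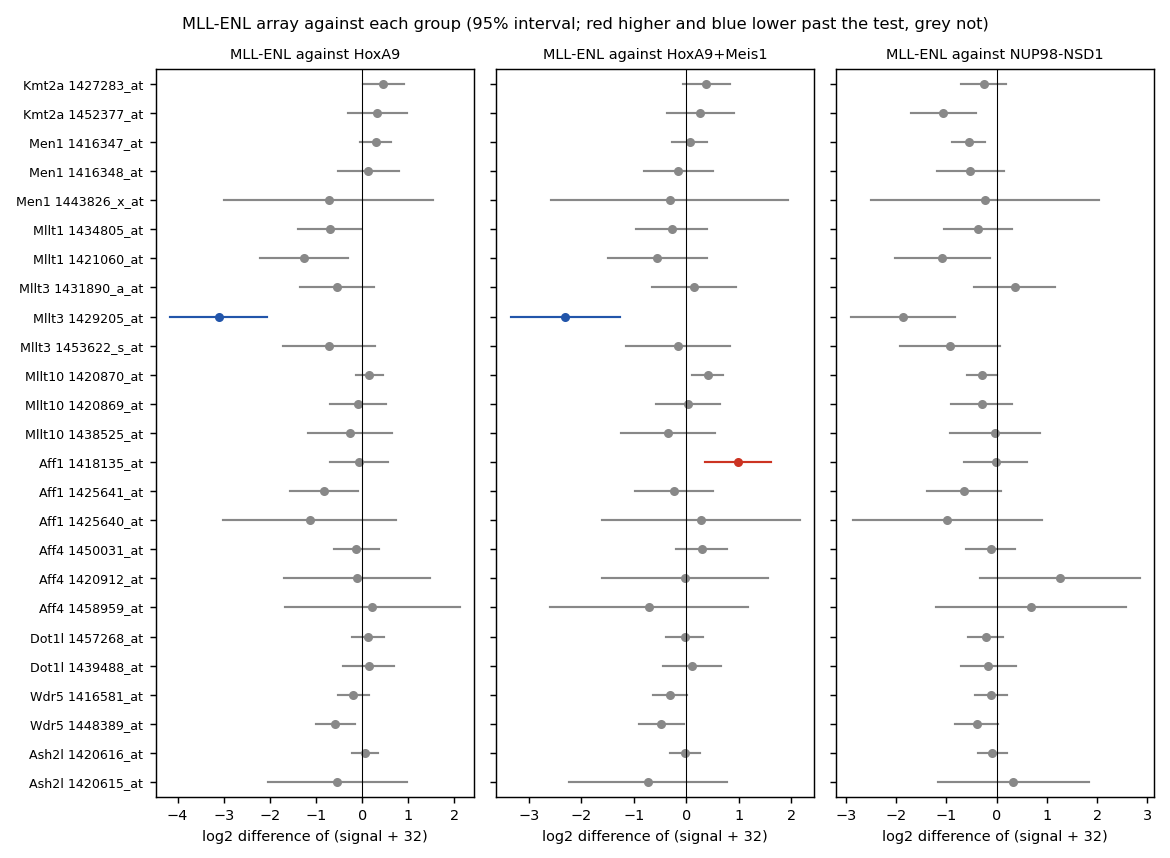
Difference of the MLL-ENL array from each group (x axis, log2 of signal + 32, MLL-ENL minus the group, with its unadjusted 95% interval) for the 25 tested probe sets. Mllt3 1429205_at is the probe set farthest to the left in every panel, at -3.11, -2.31 and -1.86, the last of them not past the test.

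Partners of these proteins were described by 3 gene lists, each gene by its brightest tested probe set. The first held 20 relatives and shared subunits of MLL, all measured. In NUP98-NSD1 5 were higher and 1 lower than in HoxA9, where 31.4% of all genes passed (13.1% higher and 18.2% lower). Against HoxA9+Meis1 7 were higher and 1 lower, where 32.6% of all genes passed (14.2% higher and 18.5% lower). The list medians were 0.17 and 0.23, where the medians of all genes were -0.14 and -0.13. Kmt2e, a MLL relative without known methyltransferase activity, read 6945, 7720.2 and 7304 in the HoxA9 clones, 9999.5, 10163 and 10062 in the HoxA9+Meis1 clones, 17807, 16339 and 14661 in the NUP98-NSD1 clones and 12499.8 in MLL-ENL. Its groups formed steps without overlap, 1.15 above HoxA9 (adjusted p = 4.36e-05) and 0.69 above HoxA9+Meis1 (adjusted p = 0.000591) for NUP98-NSD1. The 3 next brightest Kmt2e probe sets rose in both comparisons too, by 1.31 to 1.76 and by 1.40 to 1.48.

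Kmt2c, another H3K4 methyltransferase, was higher in NUP98-NSD1 than in both Hox groups on its brightest probe set, with a log2 difference of 0.83 from HoxA9 and 0.65 from HoxA9+Meis1 (adjusted p = 0.00111 and 0.00392). Of its 3 dimmer probe sets, 1434179_at passed in both, at 0.37 and 0.39. Kdm6a, an H3K27 demethylase of the Kmt2c and Kmt2d complexes, rose by 1.51 against HoxA9 (adjusted p = 0.00748), where the HoxA9 clones spread from 1756 to 5591. Hcfc1, a cofactor that MLL and menin share, read 18665, 17958 and 19498 in the NUP98-NSD1 clones and 10952, 12629.7 and 12445 in the HoxA9 clones, a rise of 0.64 (adjusted p = 0.000911). Its dimmer probe sets differed by 0.20 (1421972_s_at) and -0.36 (1450439_at), without passing. Hcfc2, its paralogue, rose by 1.27 against HoxA9+Meis1 (adjusted p = 0.000146).

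Between HoxA9+Meis1 and HoxA9, 1 gene of this list was higher and 2 lower (background 8.66% of genes, 4.18% higher and 4.48% lower). Hcfc2 fell by 0.90 on the log2 scale (adjusted p = 0.00294). Pagr1a, a subunit of the Kmt2c and Kmt2d complexes, fell by 0.43 (adjusted p = 0.0227), and Kmt2e rose by 0.46 (adjusted p = 0.0153). The 3 next brightest Kmt2e probe sets did not pass there and differed by -0.0099, -0.096 and 0.28. The calls of Pagr1a and Kmt2e were lost without HoxA9+Meis1 clone 1 or clone 2, and that of Pagr1a also without HoxA9+Meis1 clone 3 or HoxA9 clone 2 or 3, and either fit without HoxA9+Meis1 clone 1 or 2 left 1 gene of the list, Hcfc2. MLL-ENL had 2 genes higher and 0 lower than HoxA9 (background 14.9%, 5.74% higher and 9.18% lower), Hcfc1 at 0.96 (adjusted p = 0.00194) and Kmt2e at 0.77 (adjusted p = 0.00504). The dimmer Hcfc1 probe sets differed by 0.27 (1421972_s_at) and -0.13 (1450439_at), without passing. On these MLL-ENL read 5232 and 3370, where the HoxA9+Meis1 clones read 3799 to 4791 and 3055 to 3628. Against HoxA9+Meis1 MLL-ENL had 3 higher and 1 lower (background 21.5%, 9.17% higher and 12.3% lower). They were Hcfc2 at 1.09, Hcfc1 at 0.92, Pagr1a at 0.44 and Wdr82 at -0.57 (adjusted p = 0.00375, 0.00176, 0.0452 and 0.0173). The call of Pagr1a was lost without any 1 of the HoxA9+Meis1 clones, in 7 of 12 alternatives in all, and that of Wdr82 at a common median, where the difference was -0.13 (adjusted p = 0.758), and without the intensity trend. Against NUP98-NSD1 0 of the list passed with limma (background 4.62%, 1.69% higher and 2.93% lower), but 3 did without NUP98-NSD1 clone 3 (1 higher, 2 lower) and 1 without clone 1 (lower).

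The second list held 24 genes of the super elongation complex, P-TEFb, the PAF complex and Dot1l partners, of which 21 were measured. Its largest differences were in a relative of Aff1 and Aff4 and in an elongation factor. Aff3, the AF4 family member best known from lymphoid cells, read 111, 126 and 93.3 in the HoxA9 clones, 5551, 6815 and 4758 in the HoxA9+Meis1 clones, 4952, 4478 and 2033 in the NUP98-NSD1 clones and 164 in MLL-ENL. On this probe set, 1433939_at, Aff3 was under the detection level in HoxA9 and MLL-ENL and far above it in the other 6 clones. With the dim group set at that level, it was at least 14.1-fold higher in HoxA9+Meis1 than in HoxA9 (adjusted p = 1.26e-05) and at least 8.96-fold higher in NUP98-NSD1 than in HoxA9 (adjusted p = 1.93e-05). A second, dimmer Aff3 probe set, 1430435_at, differed by 0.74 and 0.47 in these comparisons and passed in neither. It was above the detection level in all cultures but HoxA9 clone 1, with 352, 833 and 1221 in the HoxA9 clones. MLL-ENL, at 781, was within the NUP98-NSD1 range of 737 to 1270 there.

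Ell2, an elongation factor of the same complex, was likewise far higher in HoxA9+Meis1 and NUP98-NSD1 than in the other cultures. It read 71, 27.6 and 81.8 in the HoxA9 clones, 2327, 2570.0 and 3193 in the HoxA9+Meis1 clones, 5001, 4154 and 2779 in the NUP98-NSD1 clones and 365 in MLL-ENL, so the HoxA9 clones and MLL-ENL were under the detection level. It was at least 6.74-fold higher in HoxA9+Meis1 (adjusted p = 1.99e-05) and at least 9.71-fold higher in NUP98-NSD1 (adjusted p = 9.79e-06) than in HoxA9. MLL-ENL also passed against HoxA9 in Ell2, where it was higher (adjusted p = 0.0115), with no fold given because both were under the level, and did not pass in Aff3 (adjusted p = 0.532). MLL-ENL was lower in Aff3 1433939_at and Ell2 than HoxA9+Meis1, by at least 14.1-fold (adjusted p = 0.000262) and 6.74-fold (adjusted p = 0.00292). It was lower than NUP98-NSD1 as well, within the same array set, by at least 8.96-fold (adjusted p = 0.00192) and 9.71-fold (adjusted p = 0.00452).

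Ccnt1, a cyclin of P-TEFb, was higher in NUP98-NSD1 by 0.80 than in HoxA9 and by 0.63 than in HoxA9+Meis1 (adjusted p = 0.000203 and 0.000720). Its dimmer probe set 1419313_at passed in the first, at 0.69, and not in the second, at 0.26. MLL-ENL was higher than HoxA9 by 0.76 on the brighter Ccnt1 probe set, 1456477_at (adjusted p = 0.00436). On 1419313_at it differed by 0.66 and did not pass (adjusted p = 0.114). Ccnt2, another cyclin of P-TEFb, was lower in NUP98-NSD1, at -0.58 and -0.53, calls kept in 13 and 9 of 18 alternatives. Its dimmer probe sets were mixed: NUP98-NSD1 and HoxA9 clones read 3114 to 3451 and 2551 to 2831 on 1427089_at, but 696 to 796 and 1454 to 1710 on 1452297_at. Cdk9, the kinase of P-TEFb, was lower in NUP98-NSD1 than in HoxA9+Meis1, at -0.33, a call kept in 14 of 18 alternatives. Mllt6, which encodes AF17, a relative of AF10, read 1306 in MLL-ENL against 3317 to 6266 in the other 9 cultures. It was lower in MLL-ENL by a log2 difference of -1.74 from HoxA9, -2.05 from HoxA9+Meis1 and -1.53 from NUP98-NSD1 (adjusted p = 0.00442, 0.00163 and 0.0188), the last lost without NUP98-NSD1 clone 2 (adjusted p = 0.0545). The dimmer Mllt6 probe sets, 1451685_at and 1425360_at, differed from NUP98-NSD1 by 0.67 and -1.08 and did not pass. In all, 5 genes of the list were higher and 1 lower in NUP98-NSD1 than in HoxA9, and 2 were higher and 3 lower than in HoxA9+Meis1, where 31.4% and 32.6% of all genes passed. Without HoxA9 clone 3, or without NUP98-NSD1 clone 2, 3 higher and 0 lower were left of the first count, and without HoxA9+Meis1 clone 1 or clone 2, 2 higher and 1 lower of the second. HoxA9+Meis1 had 3 higher and 0 lower than HoxA9 (background 8.66%). MLL-ENL had 4 higher and 2 lower than HoxA9 (background 14.9%), 2 higher and 4 lower than HoxA9+Meis1 (background 21.5%), and 0 higher and 3 lower than NUP98-NSD1 (background 4.62%). The list medians of the 3 replicated comparisons were 0.11, 0.14 and 0.08, against -0.14, -0.13 and -0.02 for all genes.

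The third list held 22 genes known as targets of MLL fusions or menin, of which 20 were measured. In NUP98-NSD1 6 were higher and 2 lower than in HoxA9, and 4 were higher and 6 lower than in HoxA9+Meis1, where 31.4% and 32.6% of all genes passed. Hoxa10 rose by 4.06 and 4.52 (adjusted p = 0.000151 and 8.58e-05), from means of 349.7 ± 70.5 and 264 ± 136 to 6909 ± 4024 (SD, n = 3). In each Hox group 1 of 3 clones was above the detection level, so these sizes are set against values near background. Its dimmer probe set 1446408_at passed in neither comparison, at -0.50 and -0.43. Hoxa7 was at least 2.45-fold higher than in either Hox group (adjusted p = 0.00632 and 0.00616). It was above the detection level on 3 arrays, NUP98-NSD1 clones 2 and 3 and MLL-ENL. Hoxa7 thus passed the filter only through the groups where it is high, so its adjusted p is not separate support. NUP98-NSD1 clone 1, at 339, was under it, where clones 2 and 3 read 1835 and 1334. The Hoxa9 probe sets went opposite ways between groups into which HoxA9 had been introduced and groups into which it had not. The brighter, 1421579_at, was lower in NUP98-NSD1 by a log2 difference of -2.49 from HoxA9 and -3.68 from HoxA9+Meis1 (adjusted p = 6.41e-05 and 8.50e-06). The counts of this list take Hoxa9 by that probe set, so it is among the lower genes in both. Its signal was 27259 to 103499 in the Hox groups, and whether it reads the introduced HoxA9 was not tested. The other, 1455626_at, read 25.7 to 50.8 in the 6 clones of the Hox groups, under the detection level, and 32131, 31804 and 36931 in the NUP98-NSD1 clones and 35209 in MLL-ENL. It was at least 83.7-fold higher in NUP98-NSD1 than in either Hox group (adjusted p = 2.09e-08 and 3.35e-08) and at least 87.8-fold higher in MLL-ENL (adjusted p = 7.24e-07 and 1.16e-06). The positions of both probe sets on the Hoxa9 transcript were not used here. The menin targets Cdkn1b and Cdkn2c, which encode inhibitors of cell cycle kinases and were singled out after their values were seen, went in opposite directions, with Cdkn1b at 1.24 (adjusted p = 0.000125) and Cdkn2c at -1.30 (adjusted p = 0.00132) against HoxA9.

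HoxA9+Meis1 had 6 genes of this list higher and 0 lower than HoxA9 (background 8.66%). Hoxa9 by 1421579_at was among the 6, and whether that probe set reads the introduced HoxA9 was not tested. Its call was lost without the intensity trend. The other Hoxa9 probe set, 1455626_at, was under the detection level in all clones of both groups and did not pass. Flt3, a receptor kinase of early progenitors, led with 4.81 (adjusted p = 1.26e-05), from a mean of 1059.7 ± 364 to 29802 ± 5847 (SD, n = 3). It was among the lower genes of NUP98-NSD1 against HoxA9+Meis1, at -3.24. Satb1, a chromatin organizer, rose by 3.40 (adjusted p = 0.0144). Its HoxA9 clones were split, at 8051, 628 and 1113, against 17146 to 20756 in the HoxA9+Meis1 clones. The call was kept in 13 of 18 alternatives. It was lost without HoxA9 clone 3 or HoxA9+Meis1 clone 1 or 2, without the intensity trend and with robust estimation. The transcription factor Tcf4 rose by 1.59 and the survival gene Bcl2 by 1.35 (adjusted p = 0.00677 and 0.00154). MLL-ENL had 5 higher and 1 lower than HoxA9 (background 14.9%), 4 higher and 4 lower than HoxA9+Meis1 (background 21.5%), and 2 higher and 1 lower than NUP98-NSD1 (background 4.62%). The lower gene against HoxA9 was Hoxa9 by 1421579_at, at -2.67, which was also among the lower against HoxA9+Meis1, at -3.86. Cdkn2c was among the higher in all of these MLL-ENL comparisons, by 2.08, 2.44 and 3.38 (adjusted p = 0.00193, 0.000763 and 0.000750). Hoxa10 was higher than in HoxA9 by 4.27 (adjusted p = 0.00215). Flt3 was lower than in NUP98-NSD1 by a log2 difference of -2.07 (adjusted p = 0.0192), and Mef2c, a myeloid transcription factor, was higher by 0.81 (adjusted p = 0.0104). Both calls were lost without the intensity trend in the variance (adjusted p = 0.0568 and 0.0518), which left 1 gene of the list.

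**Figure D5:**
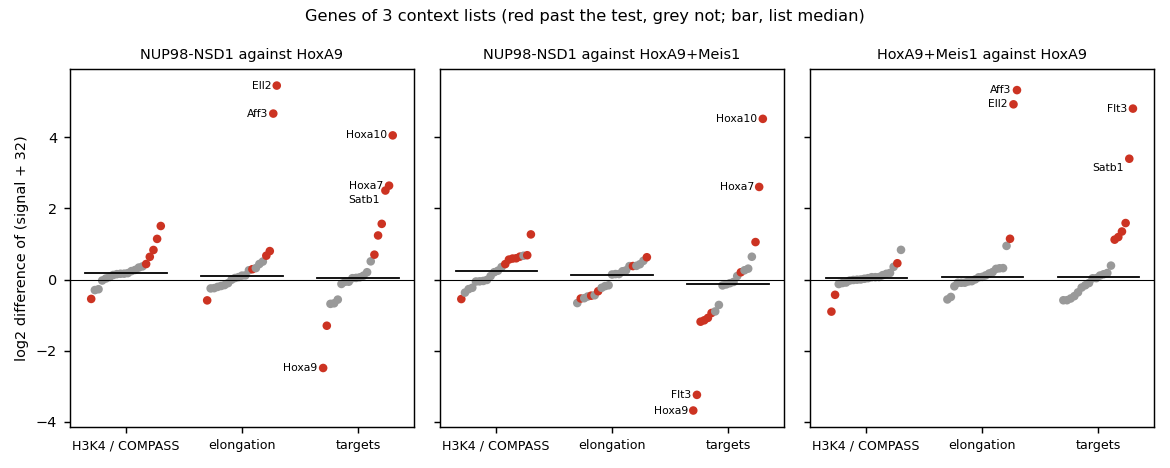
Difference of each measured gene of the 3 partner lists (y axis, log2 of signal + 32, first group minus second), 1 panel per comparison and 1 column of points per list, red where the test was passed and grey where not, with the list median as a bar. Aff3 and Ell2 stand alone at the top of the elongation column in both comparisons with HoxA9, between 4.67 and 5.46, and near the rest of the list between NUP98-NSD1 and HoxA9+Meis1.

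The genes whose log2 signal followed a member most closely over the 10 arrays were listed as a description, with 1 probe set per member. For Kmt2a 1427283_at they were Uba6 (Pearson r = 0.981), Mns1 (0.980) and Dbr1 (0.974). Men1 1416347_at was followed by Per1 (0.981), Spire1 (0.977) and Ammecr1l (0.977), and Mllt1 1434805_at by Mybl2 (0.941), Erich3 (0.927) and Fahd2a (0.920). For Mllt3 1431890_a_at the nearest were Ubr1 (0.971), Nckap5 (0.952) and Otp (0.945). Dot1l 1457268_at was followed by Rock1 (0.965), Ptger3 (0.954) and Gpatch8 (0.952). Each member was set against 25456 or 25457 candidate probe sets, over arrays that share 4 groups and 2 array sets.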

How the data were processed

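RNA was measured on Affymetrix Mouse Genome 430 2.0 arrays, 1 per culture, 10 in all. The deposited table gives each array a linear intensity for 45101 probe sets, 64 of them controls. Which software the authors used is not given in the sources used here. On every array the mean after removal of the lowest and highest 2% was 2499.25 to 2499.37, so values were used without further normalization. Their number limits the precision.

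Symbols came from the platform annotation: 34945 probe sets have 1, 932 several and 9160 none. Values were analysed as log2(signal + 32) with limma 3.58.1 in R 4.3.3 (4 group means over all 10 arrays, eBayes with an intensity trend, 6 residual degrees of freedom). Benjamini-Hochberg adjustment ran over 30945 probe sets, two-sided, in each of 6 comparisons. A fold of at least a value sets a group whose arrays are all under the detection level at that level. Such a probe set passed the filter only through arrays of other groups, so its adjusted p is not separate support. Every member was named. List genes were mostly named from the up to 4 called genes with the largest change per list and comparison. Not all of those were given, so the named genes are not a full set. Members and lists were chosen with earlier results of these data known. The fit was tested on simulated data. Alternatives changed the normalization, offset, filter, variance model, arrays fitted and clones, and those for the lists were added after seeing the data. Promoter windows came from a RefSeq table on GRCm38.p6. Figures used Python 3.11.15 and matplotlib 3.10.9.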

Additional observations from a re-analysis of the deposited data

How the results depend on the processing

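Of 17 calls among the member probe sets, 11 were kept in every alternative run, both Kmt2a calls and that of Men1 1416347_at in each NUP98-NSD1 comparison among them. The other 6 were lost in some. Of 2289 recomputed values 102 changed sign, and 0 of those had been called in either fit. The count of called members was between 4 and 8 for NUP98-NSD1 against HoxA9 when 1 clone was left out (5 without HoxA9 clone 2, 4 without HoxA9 clone 3, 5 without NUP98-NSD1 clone 2), and between 5 and 9 against HoxA9+Meis1 (9 without NUP98-NSD1 clone 1). It was 1 to 2 for HoxA9+Meis1 against HoxA9 (2 without HoxA9+Meis1 clone 3), 1 to 2 for MLL-ENL against HoxA9 (2 without HoxA9 clone 1), 1 to 2 against HoxA9+Meis1 (1 without HoxA9+Meis1 clone 2) and 0 to 1 against NUP98-NSD1 (1 without NUP98-NSD1 clone 1 or 3). Without the intensity trend, HoxA9+Meis1 against HoxA9 had 0 calls and MLL-ENL against HoxA9+Meis1 had 1. An offset of 1 gave 1 call for MLL-ENL against NUP98-NSD1. A shift to a common median gave 3 calls (2 higher, 1 lower) for MLL-ENL against HoxA9 and 4 (3 higher, 1 lower) against HoxA9+Meis1, where the median of all probe sets moved from -0.20 to 0.27 and 0.24. Cyclic loess and the common median each gave 6 higher and 0 lower for NUP98-NSD1 against HoxA9, against 6 and 2, since both Mllt3 calls were lost. In these fits the cause of a change was not tested further. Clone numbers did not pair the samples, since deviations of same-numbered clones had a correlation of -0.0644 to 0.0426. With the clone number as a replicate block the counts were 7 (5 higher, 2 lower), 5 and 1 in the replicated comparisons, and the call of Dot1l 1457268_at was lost (adjusted p = 0.0738). Among the lists, at a common median the MLL relatives had 6 higher and 0 lower genes in MLL-ENL against HoxA9, 8 and 0 against HoxA9+Meis1 and 0 and 1 in HoxA9+Meis1 against HoxA9. There the elongation list had 3 higher and 0 lower in NUP98-NSD1 against HoxA9+Meis1. Quantile normalization left it 2 higher and 1 lower in MLL-ENL against HoxA9. Without the intensity trend the elongation list had 2 higher and 1 lower in NUP98-NSD1 against HoxA9+Meis1 and in MLL-ENL against HoxA9, the MLL relatives had 0 and 1 in HoxA9+Meis1 against HoxA9 and 2 and 0 in MLL-ENL against HoxA9+Meis1, and the target list had 1 and 0 in MLL-ENL against NUP98-NSD1. Dim probe sets limit what can be said: the median difference of NUP98-NSD1 from HoxA9 was -0.35 among dimmer and -0.02 among brighter probe sets.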
